A study of Arabidopsis thaliana with 12 samples.

Results

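PDF1.2 (locus AT5G44420) and THI2.2 (locus AT5G36910) are 2 Arabidopsis thaliana genes for small antimicrobial peptides. They were taken by name and probe set from the 22746 probe sets on the array that are not controls, and both passed the filter that left 11561 probe sets for testing. The platform's annotation pairs each probe set with that gene alone. Both loci lie on chromosome 5. In the gene table PDF1.2 stands next to PDF1.2c, a near copy of the same defensin, and no probe set here is paired with PDF1.2c alone.

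PDF1.2 encodes a plant defensin, a short peptide with disulfide bonds that acts against fungi. In Arabidopsis its transcript is the usual marker of the branch of defence signalling that needs jasmonate together with ethylene, in which ERF1 and ORA59 drive the promoter. A different jasmonate branch, led by MYC2 and its relatives, controls wound-type genes and is favoured by abscisic acid (ABA), which is known to oppose the ethylene branch. Thionins are another family of short cysteine-rich peptides that damage membranes of microbes. THI2.1 is the Arabidopsis thionin best known as a jasmonate-induced gene, and THI2.2 is its relative.

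RNA of aerial parts was measured on 12 Affymetrix ATH1 arrays, 2 for each of 6 groups, with no treatment, at 21 °C and 8 h light to 16 h dark. The groups are wild type (wt), aba3-1, a mutant deficient in ABA, and 4 lines named S14-150, S15-118, S58-2 and S82-2. In the series title the lines are presented as suppressor mutants of aba3-1, although no sample label says so of each. aba3-1 is affected in the molybdenum cofactor sulfurase gene ABA3, which has no paired probe set here, so the label could not be checked on it. Plant age, ecotype, the number of plants per sample and the mutated gene of each line are not given in the sources used here, and no label says that the 2 samples of a group are separate cultures, so p-values measure only how far these samples scatter, and that scatter may be technical. Values are log2 signals, on which 1 unit is a 2-fold difference.

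The arrays had median signals of 3.58 to 3.73, and 45.5% to 46.9% of probe sets lay above a signal of 4. RCA, which encodes the activase of the carbon-fixing enzyme of leaves, lay between 12.46 and 13.36, while the root hair genes EXPA7 and EXPA18 never exceeded 2.24, and no flower marker had a paired probe set. S58-2 replicate 1 stood apart, with a 25S ribosomal RNA control at 3.77 against 7.19 to 9.78 on the other 11 arrays and with the lowest RCA value (12.46, against 12.88 to 13.36). S58-2 replicate 2 had the least extracted RNA, 5.1 µg of a range up to 15 µg. Whether these properties have a part in the S58-2 values below was not tested.

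PDF1.2 was highest in aba3-1, at 7.17 in replicate 1 and 7.79 in replicate 2, and these were the highest 2 of the 12 arrays. In wt its signal was 4.82 and 4.58. S82-2 had nearly the wt level, with 4.82 and 4.23. The other lines lay between: S14-150 at 7.05 and 5.82, S15-118 at 6.43 and 5.98, and S58-2 at 4.92 and 5.85. Both aba3-1 arrays lay above all 10 other arrays, as did 0.355% of the tested probe sets. By group mean the order was aba3-1 (7.48 ± 0.44, SD, n = 2), S14-150 (6.44 ± 0.87), S15-118 (6.21 ± 0.32), S58-2 (5.39 ± 0.66), wt (4.70 ± 0.17) and S82-2 (4.53 ± 0.42). No neighbours in this order differed by more than the half-width of the fit's 95% interval, 1.08. With the replicate number in the fit the half-width was 0.93, and aba3-1 then exceeded S14-150 by more, 1.05. In whole-tissue RNA, fewer cells that express the gene and less transcript per cell cannot be told apart.

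**Figure D1:**
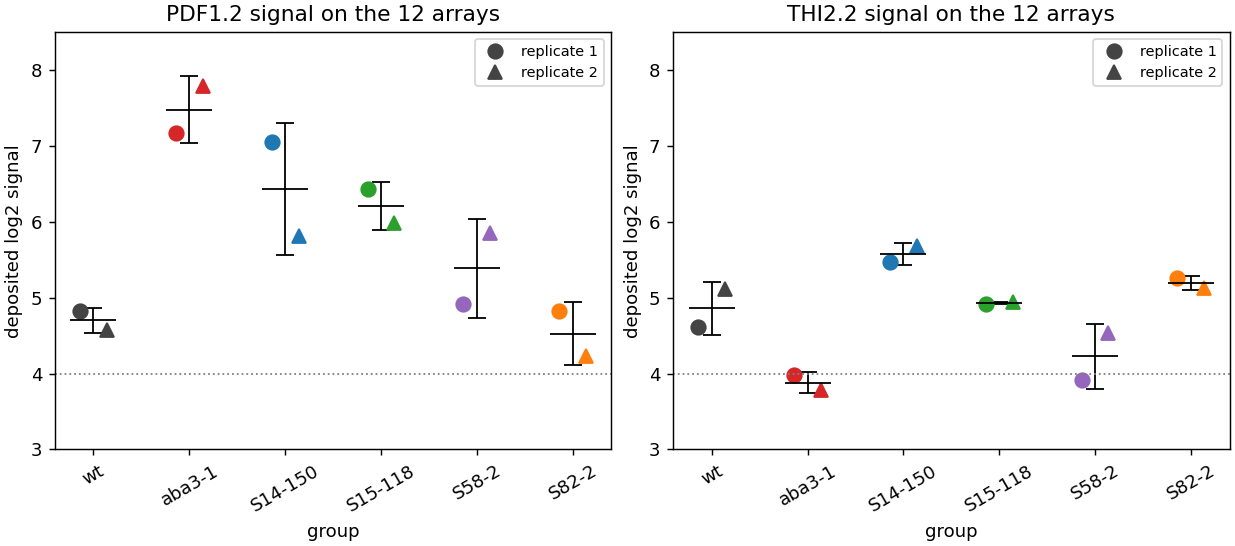
Deposited log2 signal (vertical axis) of PDF1.2 and THI2.2 in the 6 groups (horizontal axis). Circles are replicate 1 and triangles replicate 2, the bar is the group mean with its SD (n = 2), and the dotted line marks the signal of 4 used as filter. PDF1.2 is highest on both aba3-1 arrays (7.17 and 7.79), where THI2.2 is at 3.98 and 3.78.

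The first comparison asks how the level of this defence gene differs between the mutant aba3-1 and wt. PDF1.2 was 2.78 higher in aba3-1 than in wt (6.87-fold, SE 0.47, 95% interval 1.70 to 3.86). The difference was 2.35 in the replicate 1 arrays and 3.21 in the replicate 2 arrays, and the groups did not overlap. Non-overlap alone is common in a design of 2 against 2 and held for 30.9% of tested probe sets in this comparison. With limma and no replicate term the adjusted p was 0.0599, so PDF1.2 was not called. The replicate numbers pair the arrays, and with the number as an additive block (called the blocked fit from here on) the adjusted p was 0.00509 (SE 0.42). The blocked fit called 4.98% of tested probe sets in this comparison (3.27% higher, 1.71% lower), against 0.450% without the block. The blocked call was lost without wt replicate 2 (adjusted p = 0.0507), and without any other single array it held.

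Against the parent aba3-1, PDF1.2 in S82-2 fell by 2.96 (7.75-fold, SE 0.47, adjusted p = 0.0459, blocked 0.00307), and the arrays of these groups did not overlap. S82-2 against aba3-1 had 0.502% of tested probe sets called without the block, 5.86% with it (1.57% higher, 4.29% lower), and 34.3% without overlap. The 3' minus 5' difference of the actin control probe sets, a sign of RNA quality, was 1.31 and 1.44 on the S82-2 arrays. It was 1.46 on S58-2 replicate 1 and 1.02 to 1.19 on the other 9 arrays. The same difference of the GAPDH control did not set these arrays apart. It was 0.03 and -0.07 on S82-2 and 0.08 on S58-2 replicate 1, within a range of -0.18 to 0.1 over all arrays. Whether RNA quality had a part in the S82-2 results was not tested. The call without the block was lost with no filter on low signals (adjusted p = 0.118) and without any single array of wt, aba3-1, S15-118 or S82-2 (adjusted p from 0.0812 without a wt array to 0.323 without S82-2 replicate 2). In the blocked fit it held without each of the 12 arrays, with an adjusted p of at most 0.0387. Relative to wt, the S82-2 difference was -0.18 (95% interval -1.26 to 0.91, adjusted p = 1.0). That interval leaves room for a difference of about 1 log2 unit either way. Between S82-2 and wt 0.00865% were called without the block and 0.467% with it, and 24.3% did not overlap.

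S58-2 had the next lowest PDF1.2 level among the lines. Its difference from aba3-1 was -2.10 (95% interval -3.18 to -1.01), with -2.25 in the replicate 1 arrays and -1.94 in the replicate 2 arrays, and it was not called (adjusted p = 0.809, blocked 0.105). Few probe sets of any kind were called there, 0.00865% without the block and 0.104% with it, and 21.9% did not overlap. Relative to wt, S58-2 was 0.69 higher (adjusted p = 0.526, blocked 0.265). The replicate 1 difference was 0.10 and the replicate 2 difference 1.27. Without S58-2 replicate 1, the array with the low ribosomal control, the difference in the blocked fit was 1.34. That value rests on S58-2 replicate 2 alone, the array with the least extracted RNA (5.1 µg). With each array left out in turn, the blocked difference ranged from 0.031 to 1.34. Between S58-2 and wt 3.23% of tested probe sets were called (2.18% higher), 22.7% in the blocked fit, and 38.1% did not overlap.

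S14-150 and S15-118 kept PDF1.2 levels above wt on all 4 of their arrays. S15-118 was 1.51 higher than wt (2.84-fold, SE 0.47), with 1.61 and 1.4 in the 2 replicate numbers. It was called in the blocked fit (adjusted p = 0.0391) and not without the block (0.211), where 14.3% (7.45% higher) and 1.38% of tested probe sets were called and 37.7% did not overlap. This blocked call was lost without either wt array (0.111 and 0.196), either S15-118 array (0.204 and 0.114) or either S82-2 array (0.0539 and 0.0542). S14-150 was 1.74 higher than wt, with a wider gap between its arrays, 2.23 in replicate 1 and 1.24 in replicate 2. It was not called (adjusted p = 0.571, blocked 0.0776), with 0.0605% and 1.39% called and 29.1% not overlapping. Without S58-2 replicate 1 or replicate 2 its blocked adjusted p was 0.0306 or 0.0303.

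Set against aba3-1, PDF1.2 differed by -1.05 in S14-150 (95% interval -2.13 to 0.039, adjusted p = 1.0, blocked 0.601) and by -1.28 in S15-118 (95% interval -2.36 to -0.19, adjusted p = 1.0, blocked 0.752). For S14-150 the difference lay mostly in the replicate 2 arrays, where it was -1.97 against -0.12 in replicate 1. In S15-118 it was -0.74 and -1.81. The percent called was 0.0173% for S14-150 and 0.0346% for S15-118, and 0.0865% for each in the blocked fit, and 22.5% and 20.6% did not overlap. The comparisons with aba3-1 share its 2 arrays, and those with wt share the wt arrays.

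THI2.2 ran differently across the groups. Its lowest group was aba3-1, with 3.98 in replicate 1 and 3.78 in replicate 2, and S58-2 replicate 1 lay between them at 3.92. S58-2 replicate 2 was at 4.53. The wt arrays read 4.61 and 5.11, S15-118 4.92 and 4.94, and S82-2 5.26 and 5.13. S14-150 was highest, at 5.47 and 5.68, with both arrays above the other 10, which was so for 0.389% of tested probe sets. The group means were 5.58 ± 0.15 (SD, n = 2) in S14-150, 5.20 ± 0.09 in S82-2, 4.93 ± 0.01 in S15-118, 4.86 ± 0.35 in wt, 4.23 ± 0.43 in S58-2 and 3.88 ± 0.14 in aba3-1. Of the neighbours in this order, wt and S58-2 alone differed by more than the half-width of the 95% interval (0.64 against 0.57). The aba3-1 level is under the filter value of 4, so folds against it are between fitted signals, with aba3-1 near background.

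THI2.2 was lower by 0.98 in aba3-1 than in wt (1.97-fold, SE 0.25, 95% interval -1.55 to -0.41), the opposite side from PDF1.2. It was lower in both replicate numbers, at -0.63 and -1.33. The call rested on the block, with an adjusted p of 0.243 without it and 0.0272 with it. Leaving out wt replicate 1, wt replicate 2, aba3-1 replicate 1 or aba3-1 replicate 2 raised the blocked adjusted p to 0.0542, 0.225, 0.0876 and 0.196.

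Compared with aba3-1, THI2.2 was higher in S14-150 by 1.70 (3.24-fold, SE 0.25), more than any other line. The differences in the 2 numbers were 1.49 and 1.90, and it was called in the blocked fit (adjusted p = 0.0245, 0.348 without the block). In that comparison 0.0346% of tested probe sets were called higher in the blocked fit, and 0.0605% had a difference at least as high. The blocked call was lost without aba3-1 replicate 1 (0.108), aba3-1 replicate 2 (0.127), S14-150 replicate 1 (0.269), S14-150 replicate 2 (0.241) or S82-2 replicate 2 (0.05). In S82-2 THI2.2 was 1.32 above aba3-1 (2.49-fold), with 1.28 and 1.35 in the 2 numbers (adjusted p = 0.0828, blocked 0.00567). That blocked call was lost without S82-2 replicate 1 (0.0908) or aba3-1 replicate 2 (0.056), and without either S58-2 array the unblocked adjusted p was 0.0456. S15-118 was 1.05 higher than aba3-1 (0.94 and 1.16) but was not called (adjusted p = 1.0, blocked 0.202). S58-2 was 0.35 higher (95% interval -0.23 to 0.92, blocked adjusted p = 0.536), and its arrays overlapped those of aba3-1.

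No line was called against wt for THI2.2 in either fit. S14-150 was 0.72 higher (95% interval 0.14 to 1.29, adjusted p = 0.747, blocked 0.130), with 0.86 and 0.57 in the 2 numbers. S82-2 was 0.34 higher (-0.24 to 0.91), with 0.65 in replicate 1 and 0.02 in replicate 2. S15-118 was 0.07 higher (-0.50 to 0.64). S58-2 differed by -0.64 (-1.21 to -0.064, adjusted p = 0.230, blocked 0.0555), with -0.69 and -0.58 in the 2 numbers. Without S58-2 replicate 2 it was lower by 0.90 in the blocked fit. That value rests on S58-2 replicate 1 alone, the array with the low ribosomal control.

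**Figure D2:**
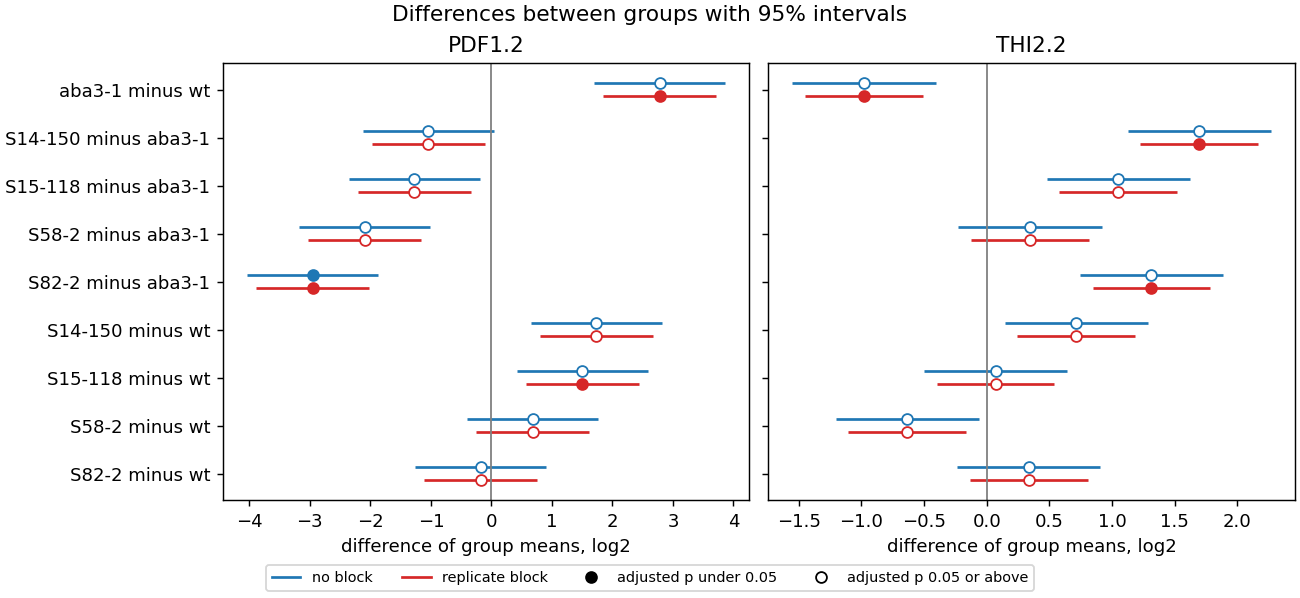
Difference of group means in log2 units (horizontal axis) for the 9 comparisons (vertical axis), PDF1.2 left and THI2.2 right. Lines are 95% intervals from limma without (blue) and with (red) the replicate block, and filled points have an adjusted p under 0.05. PDF1.2 is called in 1 comparison without the block and 3 with it, and THI2.2 in 0 and 3.

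Over the 9 comparisons PDF1.2 was thus called 1 time without the block and 3 times with it, and THI2.2 0 and 3 times. Both were called in the blocked fit for aba3-1 against wt and for S82-2 against aba3-1, in opposite directions each time. At an unadjusted p under 0.05 without the block, each gene passed in 6 of the 9 comparisons, where 1.65% to 17.7% of tested probe sets did. PDF1.2 missed it in S14-150 against aba3-1 and in S58-2 and S82-2 against wt, and THI2.2 in S58-2 against aba3-1 and in S15-118 and S82-2 against wt.

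Neither gene was called between the replicate numbers, although in the blocked fit 48.0% of tested probe sets differed between number 2 and number 1. PDF1.2 differed by -0.16 (SE 0.24, adjusted p = 0.614) and THI2.2 by 0.17 (SE 0.12, adjusted p = 0.282). PDF1.2 was lower in number 2 in 4 of 6 groups, with differences from -1.23 in S14-150 to 0.93 in S58-2 (exact sign-flip permutation p = 0.656, two-sided). THI2.2 was higher in number 2 in 4 of 6 groups, with differences from -0.20 in aba3-1 to 0.61 in S58-2 (exact permutation p = 0.281). For 6 pairs the smallest p is 0.0313. For both genes S58-2 had the highest difference of number 2 minus number 1.

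PDF1.2 correlated between number 1 and number 2 over the 6 groups with Pearson r = 0.780 (exact permutation of pairings, p = 0.0389) and Spearman rho = 0.812 (p = 0.0722). Without aba3-1 and S14-150, the groups farthest from the median of the number 1 values, r was 0.663. That choice used number 1 alone, and it left out S14-150, whose difference between numbers (-1.23) was the largest in size. For THI2.2 r was 0.868 (exact permutation p = 0.0139) and rho 0.886 (p = 0.0333). Without S58-2 and aba3-1, chosen in the same way from number 1, r was 0.710. Adjusted over the 3 relations of this kind, the p-values for r were 0.0389 and 0.0208, and those for rho 0.103 and 0.100. When group labels were permuted within each number, the spread of the group means had an exact one-sided p of 0.0139 for PDF1.2 and 0.00972 for THI2.2 (smallest possible 0.00139, adjusted over 3 tests 0.0139 for each). Under these permutations the spread changes only with the correlation between numbers. It is therefore the one-sided form of the test of r above and not separate evidence.

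No correlation between the 2 genes passed a test. In number 1 they correlated with r = 0.0931 over the 6 arrays (exact permutation p = 0.819, rho = -0.0290, p = 0.983). In number 2 r was -0.705 (exact permutation p = 0.110, rho = -0.771, p = 0.103). Over the 12 arrays, centred within each number, r was -0.325 and rho -0.375 (permutation within number, p = 0.320 and 0.251), and without aba3-1 replicate 2 and S82-2 replicate 2 r was 0.0375. Adjusted over these 3 relations, no p for r was below 0.329. Of the 6072 other tested probe sets with 1 gene, 24.9% correlated with PDF1.2 at or below -0.325.

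The gap between the 2 changes was also compared over the groups. With group labels permuted within each number, the spread of this gap had an exact one-sided p of 0.0139. In the same test PDF1.2 and THI2.2 alone had 0.0139 and 0.00972. The gap varies whenever either gene varies, so this test cannot decide whether the 2 genes changed alike. From wt to aba3-1, PDF1.2 changed by 2.98 more than THI2.2 in number 1 and by 4.54 more in number 2. From aba3-1 to S82-2 the gap was -3.63 and -4.91. Relative to wt, S82-2 differed by 0.0 and -0.35 for PDF1.2 and by 0.65 and 0.02 for THI2.2, and neither gene was called. S14-150 read above wt for both, with PDF1.2 at 2.23 and 1.24 above wt and THI2.2 at 0.86 and 0.57 above wt. Neither gene was called between S14-150 and wt in either fit. S58-2 read low for both in number 1, with 4.92 and 3.92. The gap correlated between the numbers over the 6 groups with r = 0.917 (exact permutation p = 0.0139, adjusted 0.0208) and rho = 0.771 (p = 0.103). The test of the spread of the gap is the one-sided form of this test of r, not a separate result. Without aba3-1 and S82-2, the groups farthest from the median of the gap in number 1, r was only 0.549. Levels of 2 probe sets cannot be set against each other, so only these changes are compared.

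**Figure D3:**
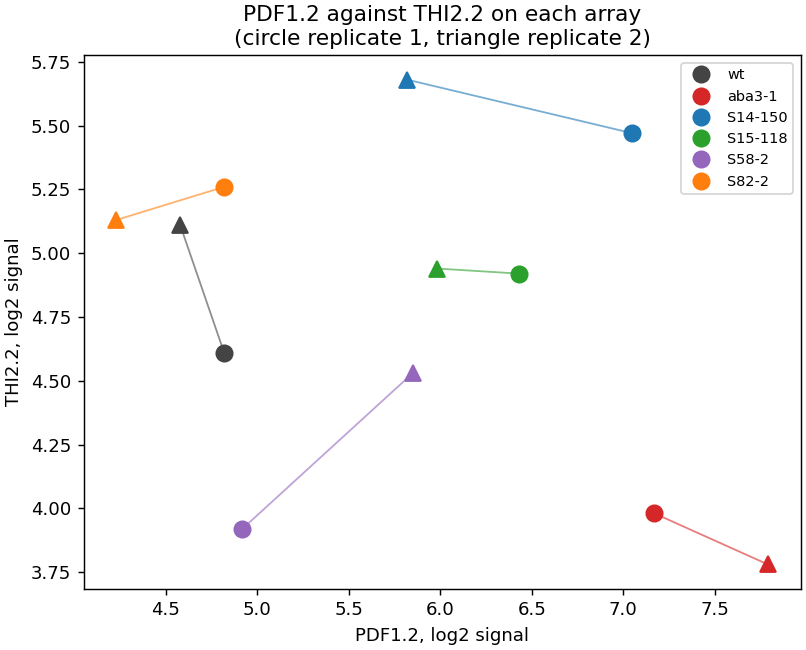
PDF1.2 (horizontal axis) against THI2.2 (vertical axis), in log2 signal, with 1 point per array and a line joining the 2 arrays of a group. aba3-1 lies at the lower right (7.17 and 7.79 against 3.98 and 3.78), S82-2 and wt at the left, S14-150 at the top (5.47 and 5.68 for THI2.2), and the S58-2 arrays at 4.92 and 5.85 for PDF1.2.

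Among the other defensins, PDF1.2b on chromosome 2, which encodes nearly the same peptide, followed PDF1.2. Its probe set has the suffix x_at, which Affymetrix gives to sets whose probes can match other transcripts, so its signal and that of PDF1.2 may be shared in part. PDF1.2b was at 7.31 and 8.37 in aba3-1, 5.39 and 5.19 in wt, and 4.83 and 4.77 in S82-2. S14-150 read 7.84 and 6.32, S15-118 7.19 and 7.32, and S58-2 5.40 and 6.64. In the blocked fit it was called higher in aba3-1 than in wt (2.55, SE 0.51, adjusted p = 0.0206; 0.168 without the block), lower in S82-2 than in aba3-1 (-3.04, adjusted p = 0.00714; 0.0815 without) and higher in S15-118 than in wt (1.97, adjusted p = 0.0305; 0.176 without). These are the 3 comparisons in which PDF1.2 was called.

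The defensins of the PDF2 class, which are made without need of infection, gave other patterns. PDF2.2 was highest in S15-118, at 8.68 and 8.72, against 7.76 and 7.10 in wt, and was called higher in the blocked fit in S15-118 (1.27, adjusted p = 0.00944) and S58-2 (0.86, adjusted p = 0.0322), with 0.0817 and 0.150 without the block. In aba3-1 it was at 7.99 and 7.80. PDF2.3 was lowest in S58-2, at 7.92 and 7.95 against 8.51 and 8.54 in wt, a difference of -0.59 (blocked adjusted p = 0.0179, 0.0928 without). PDF1.4 was at 3.01 to 3.35 on all arrays of number 1 and on the wt, aba3-1 and S82-2 arrays of number 2, but at 5.29 in S15-118 replicate 2, 6.13 in S58-2 replicate 2 and 3.71 in S14-150 replicate 2. It passed the filter through those first 2 arrays and was called in no comparison.

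Of 12 defensin loci listed, 9 had a paired probe set and 5 passed the filter; PDF1.1, PDF2.1, PDF2.5 and PDF2.6 stayed at or below 3.76. PDF1.2 and PDF1.2b were the 2 of 5 called higher in aba3-1 than in wt in the blocked fit, where 3.27% of all tested probe sets were, and 0 of 5 were called without the block. Because their probes may share signal, these may not be separate measurements. The median difference of the 5 was 0.47, against 0.005 over all tested probe sets. That median is the difference of PDF2.2, which was not called in this comparison in either fit. In S82-2 against aba3-1 the same 2 were called lower in the blocked fit (4.29% of all tested), and PDF1.2 alone without it, with a median of -0.10 against 0.01. In S15-118 against wt PDF1.2, PDF1.2b and PDF2.2 were called higher in the blocked fit, 3 of 5 where 7.45% of all tested were, and 0 without it. The median was 1.27 against -0.04. The 5 include PDF1.2 itself, PDF1.2b with its possibly shared signal, and PDF1.4. PDF1.4 passed the filter only through S15-118 replicate 2 and S58-2 replicate 2. The shares and medians in each comparison of this paragraph are therefore not read as results about defensins. In S58-2 against wt 1 was called higher and 1 lower in the blocked fit, PDF2.2 and PDF2.3, and 0 without it.

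The thionin AT1G66100 had a far stronger shift between the replicate numbers, 2.14 higher in number 2 (SE 0.16, adjusted p = 2.89e-06). It was at 9.70 and 11.54 in wt and 8.11 and 10.42 in aba3-1, so the arrays of these groups overlapped while each number showed a difference of the same sign, -1.59 and -1.12. The blocked fit called it lower in aba3-1 (-1.36, SE 0.28, adjusted p = 0.0229), where the fit without the block gave an adjusted p of 1.0. It was also called lower than wt in the blocked fit in S15-118 (-1.87, adjusted p = 0.00257) and S58-2 (-1.98, adjusted p = 0.00112). Unlike THI2.2, it was not called between S82-2 and aba3-1 (0.46, blocked adjusted p = 0.418) or between S14-150 and aba3-1 (0.44, 0.794); whether the genes differ in this was not tested. Both tested thionins were called lower in aba3-1 than in wt in the blocked fit, as were 1.71% of all tested probe sets, and 0 of 2 without the block. The 2 include THI2.2 itself, so AT1G66100 is the only other thionin called. This share is therefore not read as a result about thionins. THI2.1, the jasmonate-induced thionin, read 2.46 to 2.68 and AT2G15010 2.39 to 2.44, and neither passed the filter.

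**Figure D4:**
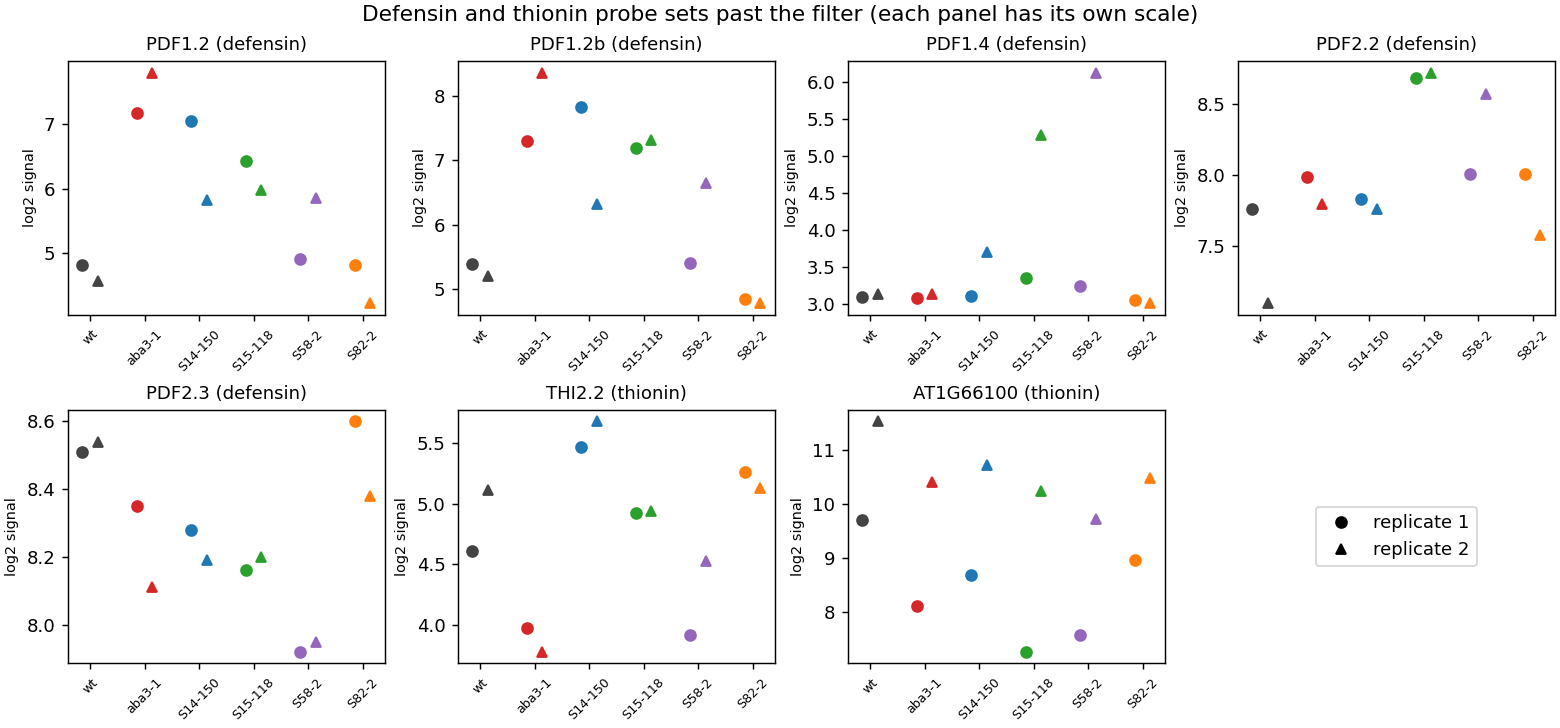
Log2 signal (vertical axes, a scale per panel) of the 5 defensin and 2 thionin probe sets past the filter, in the 6 groups. Circles are replicate 1 and triangles replicate 2. PDF1.2b repeats the high aba3-1 and low S82-2 values of PDF1.2, PDF1.4 is above 5 in S15-118 replicate 2 and S58-2 replicate 2 alone, and AT1G66100 is higher in replicate 2 in all 6 groups.

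Few other genes of the surrounding pathways could be read. Of 14 jasmonate synthesis loci 2 had a paired probe set, of 18 perception and repressor loci 2, of 18 ethylene branch loci 1, of 16 salicylic acid branch loci 2, and of 10 wound-type target loci 0. ERF1, ORA59, MYC2 and VSP2 are therefore not analysed here. Together with the other defensins and thionins, 11 genes besides PDF1.2 and THI2.2 were tested. The blocked fit called 1 of the 11 higher and 1 lower in aba3-1 than in wt, namely PDF1.2b and AT1G66100, against 3.27% and 1.71% of all tested probe sets. In S82-2 against aba3-1 it called 2 lower (PDF1.2b and SAG101), against 4.29%. In S15-118 against wt it called 4 higher (PDF1.2b, PDF2.2, SAG101 and GRXC9) and 1 lower (AT1G66100), against 7.45% and 6.89%. In S58-2 against wt it called 4 higher (PDF2.2, OPCL1, SAG101 and GRXC9) and 2 lower (PDF2.3 and AT1G66100), against 10.5% and 12.2%. These counts include GRXC9, which passed the filter only through the arrays of S15-118 and S58-2. The 11 also include PDF1.4, which passed it only through S15-118 replicate 2 and S58-2 replicate 2. In the other 5 comparisons 0 of the 11 were called in either fit, and without the block the 1 call was SAG101 in S58-2 against wt.

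OPCL1, which activates jasmonate precursors in the peroxisome, was at 7.43 and 6.16 in aba3-1 and 6.85 and 5.74 in wt, a difference of 0.50 that was not called. It was called higher in S58-2 than in wt in the blocked fit alone (0.72, adjusted p = 0.0411; 0.650 without). The transcription factors MYC3 and MYC4 of the wound-type branch were called in no comparison. MYC3 stayed between 4.94 and 5.49, and MYC4 was 1.92 higher in number 2 (SE 0.09, adjusted p = 1.05e-07). EIN3, the main transcription factor of ethylene responses, lay between 6.90 and 8.00 and was called in no comparison either.

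The salicylic acid branch had 2 tested genes. SAG101, a partner of the immune regulator EDS1, was at 5.14 and 5.25 in S58-2 against 4.06 and 4.15 in wt and rose there in both fits (1.09, SE 0.21, adjusted p = 0.0336, blocked 0.00392). In S15-118 it was at 4.99 and 5.17 and was called higher than in wt in the blocked fit (0.98, adjusted p = 0.0109; 0.0817 without the block). It was also called lower in S82-2 than in aba3-1 in the blocked fit (-0.87, adjusted p = 0.0286; 0.180 without). GRXC9, a glutaredoxin induced by salicylic acid that represses PDF1.2 when overexpressed, was at 4.33 and 4.38 in S58-2 and 4.65 and 4.08 in S15-118, against 2.6 on both wt arrays, which is under the filter value. On the arrays of the other groups it was at or below 3.78, so it was tested only because of its S58-2 and S15-118 values, and its calls against wt are not read as results.

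The probe sets most like PDF1.2 were sought among the 6072 other tested probe sets with 1 gene, by Pearson r over the 12 arrays with values centred within each number. PDF1.2b came first (r = 0.971), followed by AT3G23550 (0.946), AT3G26850 (0.918), AT3G16530 (0.913) and AT2G43590 (0.870). Their ranges differed. AT2G43590 was at 3.02 ± 0.06 (SD, n = 2) in wt and 5.31 ± 0.05 in aba3-1, where its wt level is under the filter value. AT3G26850 differed between these groups by 0.67, and its wt arrays, at 3.9 and 3.73, are under the filter value too. The most opposite were AT2G44770 (r = -0.921) and AT4G23670 (-0.918), the latter at 10.46 ± 0.50 in wt and 9.23 ± 0.85 in aba3-1. The arrays share their normalization, and 6072 candidates were searched with 12 points, so these are descriptions. Without centring, 3 of the 5 remained among the first 5 and 0 of the 2 most opposite were kept (AT2G44770 had r = -0.338 and AT4G23670 r = -0.597).

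Those most like THI2.2 had smaller differences. AT1G33810 (r = 0.868), AT5G28750 (0.867), AT4G37020 (0.840), AT1G42960 (0.833) and AT3G04500 (0.816) differed between aba3-1 and wt by -0.31, -0.26, -0.13, -0.12 and -0.22, against -0.98 for THI2.2. The most opposite, AT3G06240 (r = -0.924) and AT2G45910 (-0.870), differed between S14-150 and aba3-1 by -0.28 and -0.48. AT2G45910 was at 3.83 and 3.62 in S14-150, under the filter value. Without centring, 3 of the 5 most alike and both of the most opposite were kept. Across the tested probe sets, the SD of the 6 group means of PDF1.2 (1.13) was at the 98.9th percentile and that of THI2.2 (0.62) at the 95.8th.

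**Figure D5:**
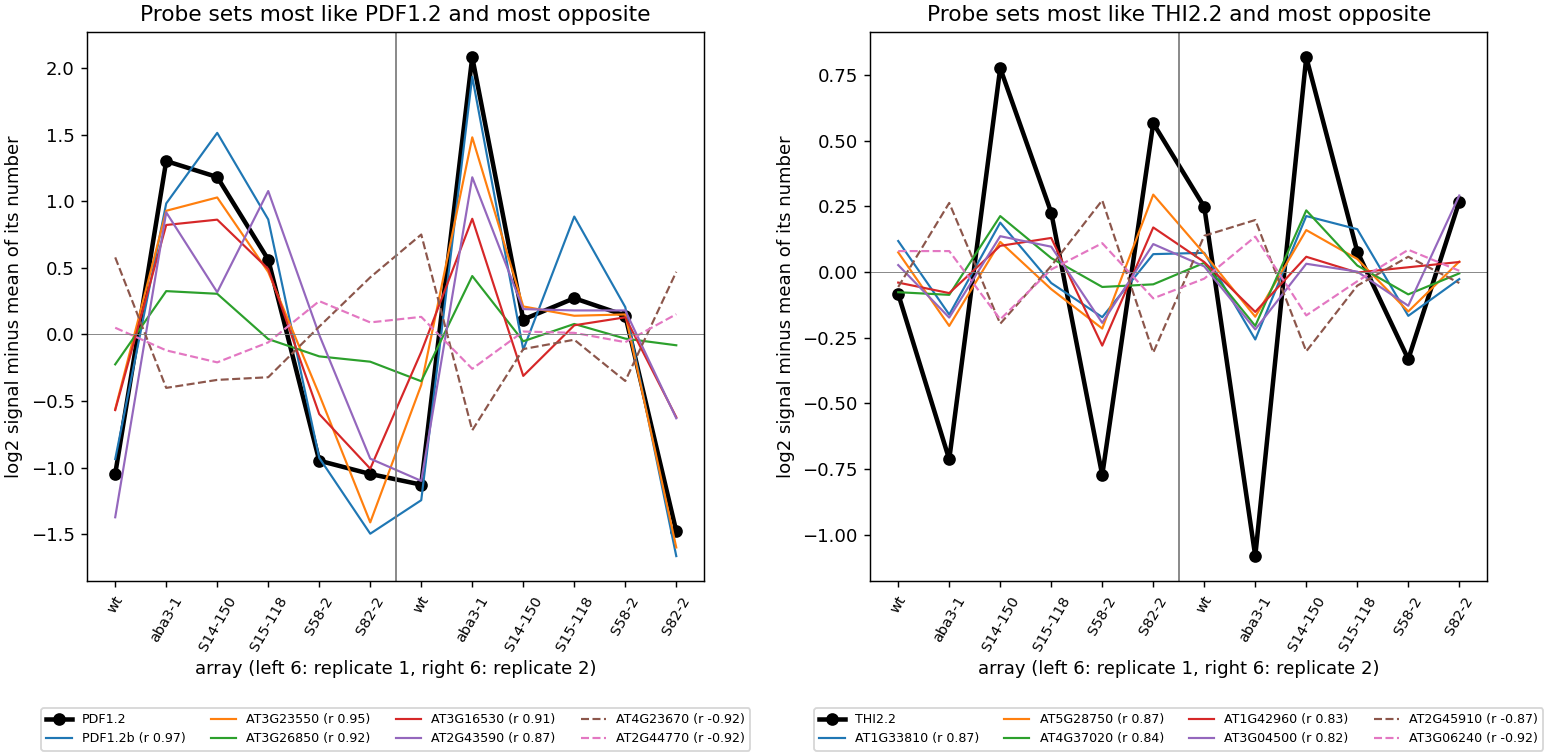
Log2 signal minus the mean of its replicate number (vertical axis) on the 12 arrays (horizontal axis, replicate 1 left of the line), for PDF1.2 and THI2.2 (black), their 5 most alike probe sets (solid) and 2 most opposite (dashed), with Pearson r. PDF1.2b follows PDF1.2 with r = 0.971, and the probe sets most like THI2.2 span narrower ranges than THI2.2 itself.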

How the data were processed

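The deposited table holds log2 signals of 22810 probe sets on 12 arrays, made by the authors with GCRMA per the submitters' processing notes, with no version given there. Since GCRMA returns log2 values, base 2 was assumed. After 64 controls were removed, probe sets above 4 on at least 2 arrays were tested (11561). limma 3.58.1 in R 4.3.3 fitted 6 group means with 6 residual degrees of freedom, and p-values were adjusted by Benjamini-Hochberg over all tested, with calls at an adjusted p under 0.05. The scripts were tested on simulated data. Exact tests used Python 3.11.15 and SciPy 1.17.1.

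In all 15 pairs of groups, deviations from the group means correlated between equal replicate numbers (r 0.708 to 0.872), so the numbers pair the arrays. Blocked values (5 residual degrees of freedom) are given where they change a call.

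The annotation gives 1 gene for 13513 probe sets, more than 1 for 503 and no gene for 8730. Named are the members, all listed defensins and thionins, from each other list up to 3 called genes or the highest, and for each member the 5 most alike and 2 most opposite probe sets. The members and lists were chosen with earlier results of these data known. The number of arrays limits precision.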

Additional observations from a re-analysis of the deposited data

Results flagged for a closer look

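Differences of THI2.2 that turned sign between the replicate numbers were picked out, and none of these turns was tested, since each rests on 1 array per group and number. Between S58-2 and aba3-1 THI2.2 differed by -0.06 in number 1 and by 0.75 in number 2. Between S15-118 and wt it differed by 0.31 in number 1 and by -0.17 in number 2.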

How the results depend on the processing

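Other filters, normalization, prior and block were tried, and arrays were left out. The recomputed differences of the 2 genes kept direction and side of the threshold 309 times, newly passed it 14 times, lost it 9 times and turned sign 2 times. All 9 losses were of the only call without the block, PDF1.2 in S82-2 against aba3-1. That call held in 10 settings, and the rest of the 309 were uncalled differences that stayed uncalled. In the blocked fit the counts were 191, 4, 18 and 3 times. Its 18 losses likewise fell on called differences, most often (6 times) on PDF1.2 in S15-118 against wt. The replicate block gave calls, with the same differences, to PDF1.2 in aba3-1 against wt (2.78) and S15-118 against wt (1.51), and to THI2.2 in aba3-1 against wt (-0.98), S14-150 against aba3-1 (1.70) and S82-2 against aba3-1 (1.32). The block changed no other call of the 2 genes. With the block and without both S58-2 arrays these 5 held, and PDF1.2 in S14-150 against wt (1.74) was called too. THI2.2 in S82-2 against aba3-1 (1.32) was called without both S58-2 arrays alone. With no filter on low signals PDF1.2 in S82-2 against aba3-1 (-2.96) lost its call (adjusted p = 0.118). Quantile normalization, the stricter filter and the robust prior changed no call of these differences.

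With 1 array left out, ranges without the block were -3.27 to -2.65 for PDF1.2 in S82-2 against aba3-1, -0.47 to 0.12 for PDF1.2 in S82-2 against wt, 1.22 to 1.42 for THI2.2 in S82-2 against aba3-1, and -0.18 to 0.32 for THI2.2 in S15-118 against wt. Uncalled differences that moved by over 1.5 times ranged, for PDF1.2, from -1.66 to -0.43 in S14-150 against aba3-1, 1.12 to 2.35 in S14-150 against wt and 0.22 to 1.15 in S58-2 against wt, and for THI2.2 from 0.04 to 0.65 in S58-2 against aba3-1, 0.465 to 0.965 in S14-150 against wt, 0.085 to 0.585 in S82-2 against wt and -0.94 to -0.33 in S58-2 against wt. These extremes came without an S14-150 array for PDF1.2 in S14-150, without an S58-2 array in each S58-2 comparison, and without a wt array for THI2.2 in S14-150 and S82-2. With the block, PDF1.2 ranged from 2.31 to 3.25 in aba3-1 against wt, 1.09 to 2.38 in S14-150 against wt, 1.33 to 1.68 in S15-118 against wt, 0.031 to 1.34 in S58-2 against wt, and -0.43 to 0.083 in S82-2 against wt. THI2.2 ranged from -1.20 to -0.76 in aba3-1 against wt, 1.47 to 1.92 in S14-150 against aba3-1, 1.09 to 1.54 in S82-2 against aba3-1, -0.13 to 0.27 in S15-118 against wt, and -0.90 to -0.37 in S58-2 against wt.

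The difference of PDF1.2 between numbers, -0.16, was 0.054 without the S14-150 pair. Its agreement between numbers (r = 0.780) missed the threshold as Spearman rho (0.812) and after quantile normalization (r = 0.770, exact permutation p = 0.0597). The correlation of PDF1.2 with THI2.2 was 0.0931 in number 1 alone and 0.0375 without 2 arrays, against -0.325 over 12. Causes of these shifts were not tested. Counts of called probe sets rose with the block from 52 to 576 in aba3-1 against wt, and against aba3-1 from 2 to 10 in S14-150, 4 to 10 in S15-118, 1 to 12 in S58-2 and 58 to 677 in S82-2. Against wt they rose from 7 to 161, 160 to 1657, 373 to 2621 and 1 to 54 in these lines. Without the filter they were 6 in aba3-1 against wt, 1 in S14-150 and 2 in S58-2 against aba3-1, and 9 in S82-2 against wt, and with the robust prior 1 in S14-150 against aba3-1. With 1 array left out they ranged from 0 to 75 in aba3-1 against wt, 0 to 85 in S82-2 against aba3-1, 7 to 189 in S15-118 against wt and 70 to 395 in S58-2 against wt.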

Other observations

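JMT, which makes methyl jasmonate from jasmonate, passed the filter value of 4 on 1 array only and so was not tested. It read 2.90 and 3.81 in wt and 3.0 and 4.47 in S82-2, against 2.63 and 2.83 in aba3-1. The S58-2 arrays, at 2.33 and 2.39, were the lowest. Most of these signals lie near background.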
